A study of Drosophila melanogaster with 24 samples.

Results

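The 4 transcripts described here each carry several protein-coding genes and were followed over all 8 groups of a Drosophila melanogaster microarray study. They were taken by their FlyBase transcript identifiers: FBtr0071140 (CG45089 and ND-MNLL), FBtr0071676 (CG42497 and Tim10), FBtr0071672 (CG42496 and Ppcdc) and FBtr0071680 (CG42379, CG42380, CG42381 and PIG-M). All 4 were among the 13873 transcripts with values, and each is called below by its main gene (ND-MNLL, Tim10, Ppcdc and PIG-M). The study set lol mutant flies, named for the long noncoding RNA Lobe-less, against w1118 control flies, each as females and males and each as heads and whole bodies. The 8 groups were lol female heads, w1118 female heads, lol male heads, w1118 male heads, lol female whole bodies, w1118 female whole bodies, lol male whole bodies and w1118 male whole bodies, with 3 arrays each from separate cultures. All flies were adults of day 2 reared at 23 °C, and each extraction pooled 100 whole bodies or heads. Heads were sieved away from frozen carcasses, and the whole-body samples still contained the head. The lol allele itself, and what it removes, is not given in the sources used here.

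A polycistronic mRNA carries more than one open reading frame on a single RNA, which is the rule in bacteria and rare in animals. In Drosophila a small number of such mRNAs encode a short upstream protein and a longer downstream one from the same molecule. An array probe reads the RNA and not the protein, so the cistrons of one of these transcripts share a single value. The downstream proteins belong to basic metabolism. ND-MNLL is an accessory subunit of mitochondrial complex I, which passes electrons from NADH to ubiquinone. Tim10 is a small chaperone of the mitochondrial intermembrane space that, with Tim9, escorts hydrophobic carrier proteins to the inner membrane. Ppcdc is phosphopantothenoylcysteine decarboxylase, a step of coenzyme A synthesis. PIG-M is the mannosyltransferase that adds the first mannose to the glycosylphosphatidylinositol (GPI) anchor that ties some proteins to the cell surface.

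The gene records in the RefSeq table of the fly describe the same arrangement. Within each transcript the listed genes share the same start and end. The table's synonyms name ND-MNLL, Tim10, Ppcdc or PIG-M as the main reading frame and the other listed genes as upstream frames. The lengths of the frames were not looked at here. The ND-MNLL transcript lies on chromosome X and the other 3 on chromosome arm 2R. Tim10 and Ppcdc are direct neighbours, with 0 gene records between them, and 6 genes lie wholly between PIG-M and Tim10. The array carried 8 probes for each of 16637 designed transcripts, and which bases of a transcript they touched was not analysed here. Each member has between 1 and 5 RefSeq transcripts per gene, which the array values do not separate.

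Values are log2 expression on the RMA scale, which ran from 6.61 to 15.92, with array medians between 12.10 and 12.25. Of the head arrays, 4 stood apart in a set of 214 transcripts. They were lol female head 1, lol male head 1, w1118 male head 1 and w1118 male head 2. The set was chosen in w1118 females, for whole bodies at least 2 above heads on the log2 scale (adjusted p under 0.05 by limma). It also had to differ by less than 0.5 between the sexes in w1118 whole bodies. As w1118 female heads were used in the choice, their low level in the set was fixed in advance. The median of that set was 10.37 to 10.93 on those 4 arrays and 8.68 to 9.11 on the other 8 head arrays, against 13.06 to 13.85 on the whole-body arrays. Comparisons that use heads are given below also without these 4 arrays, which leaves 2 lol female heads, 3 w1118 female heads, 2 lol male heads and 1 w1118 male head. The lone w1118 male head is then assumed to vary as the other groups do. None of the 23 head, gonad, muscle and fat-body marker genes looked for could be matched to a measured transcript identifier, nor could lol itself, so the labels were not checked against them. As these are bulk samples, fewer cells of a type and less RNA per cell cannot be told apart.

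All 4 transcripts lay high on the array's scale and varied little between groups. Over the 24 arrays their mean log2 levels were 14.66 for ND-MNLL, 14.69 for Tim10, 14.22 for Ppcdc and 14.55 for PIG-M, and between 86.82% and 92.06% of all measured transcripts had a lower mean. Probe sets differ in response, so these ranks describe signal and not the amount of RNA. The highest group mean exceeded the lowest by 0.46 for ND-MNLL, 0.68 for Tim10, 0.60 for Ppcdc and 0.30 for PIG-M on the log2 scale, against a median of 1.17 over all transcripts. PIG-M was the steadiest of the set, with 3.28% of transcripts varying less between groups, while the shares for ND-MNLL, Tim10 and Ppcdc were 17.12%, 20.91% and 17.62%. For PIG-M the SD of the group means (0.095) was below the SD within groups (0.124), and for ND-MNLL, Tim10 and Ppcdc it was above. The SD within groups is that of single arrays, and means of 3 arrays spread less than single arrays do. A lower SD of the means therefore does not show that the groups are alike. The top of the scale lay at 15.92, and 703 transcripts averaged over 15. The shares above compare transcripts of all levels, and whether nearness to the top narrowed the differences of these 4 was not tested.

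**Figure D1:**
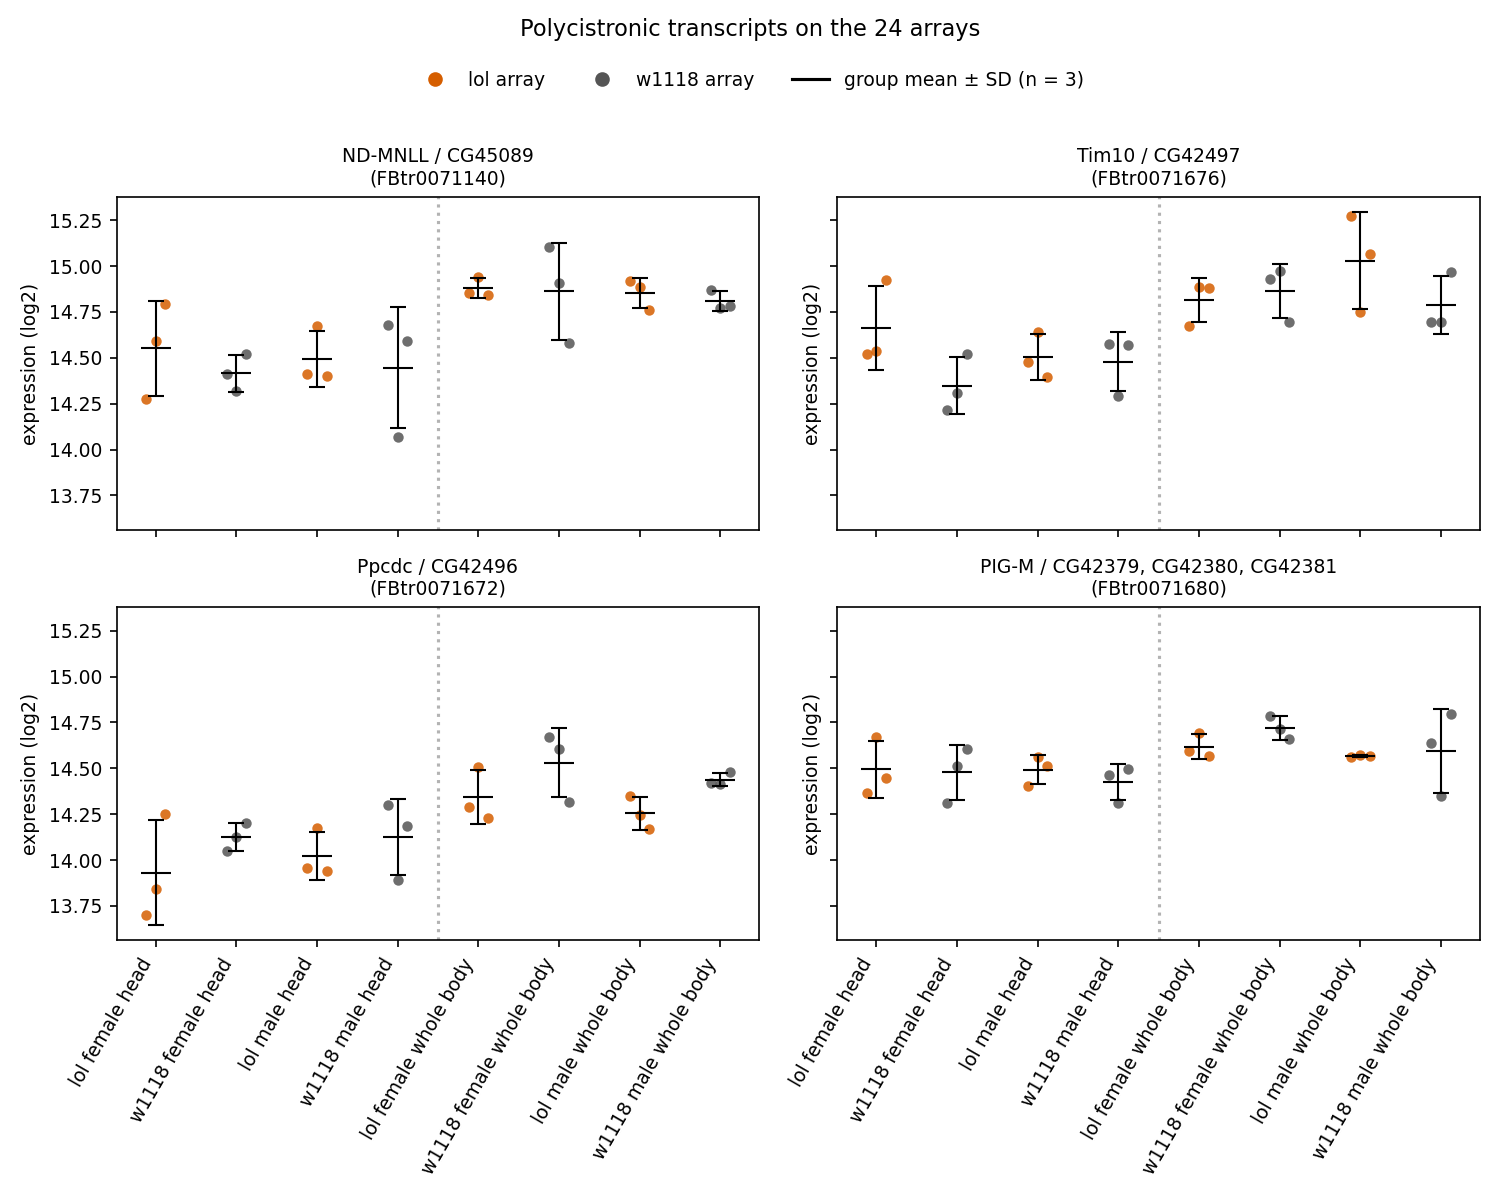
Expression (log2, vertical axis) of the 4 polycistronic transcripts on every array, by group; points are arrays, and bars are the group mean ± SD (n = 3). In all 4 panels every head group averages below every whole-body group, and PIG-M spans the narrowest range.

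ND-MNLL, the complex I subunit, had values of 14.28, 14.59 and 14.79 in lol female heads, against 14.41, 14.32 and 14.52 in w1118 female heads. In male heads it was at 14.41, 14.67 and 14.40 in lol, against 14.68, 14.07 and 14.59 in w1118. The strains overlapped in heads of both sexes, and the array w1118 male head 2 was the lowest of all 24. Lol female whole bodies gave 14.86, 14.94 and 14.84, against 15.10, 14.91 and 14.58 in w1118 female whole bodies. Lol male whole bodies gave 14.92, 14.88 and 14.76, against 14.87, 14.77 and 14.78 in w1118 male whole bodies. Whole bodies of the strains overlapped as well. Within each strain and sex, all 3 head arrays lay below all 3 whole-body arrays. The lowest group mean was 14.42 ± 0.10 in w1118 female heads and the highest 14.88 ± 0.05 in lol female whole bodies (SD, n = 3 each), and no neighbours in the order of means differed by more than the larger of their SDs.

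Tim10, the import chaperone, was at 14.52, 14.54 and 14.92 in lol female heads, against 14.21, 14.31 and 14.52 in w1118 female heads. These groups met at a single point, the lowest lol array being level with the highest w1118 array. In male heads Tim10 was at 14.48, 14.64 and 14.40 in lol, against 14.58, 14.29 and 14.57 in w1118. In female whole bodies it was at 14.67, 14.89 and 14.88 in lol, against 14.93, 14.97 and 14.70 in w1118. In male whole bodies it was at 15.27, 14.75 and 15.06 in lol, against 14.69, 14.70 and 14.97 in w1118. The strains overlapped in each of these 3 settings. Of the 12 head arrays, 11 lay below the lowest whole-body array, the exception being lol female head 3 at 14.92. The lowest group mean was 14.35 ± 0.16 in w1118 female heads and the highest 15.03 ± 0.27 in lol male whole bodies (SD, n = 3 each), with no step between neighbouring groups larger than their SDs.

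Ppcdc, the coenzyme A enzyme whose gene adjoins Tim10, was at 13.70, 13.84 and 14.25 in lol female heads, against 14.05, 14.12 and 14.20 in w1118 female heads. In male heads it was at 13.96, 14.17 and 13.94 in lol, against 14.30, 13.89 and 14.18 in w1118. Both pairs overlapped, with lol female head 1 the lowest of the 24 arrays. Lol female whole bodies gave 14.29, 14.51 and 14.23, against 14.67, 14.61 and 14.32 in w1118 female whole bodies, which overlapped too. Lol male whole bodies gave 14.35, 14.24 and 14.17, against 14.42, 14.42 and 14.48 in w1118 male whole bodies. Here all 3 lol arrays lay below all 3 w1118 arrays. The lowest group mean was 13.93 ± 0.29 in lol female heads and the highest 14.53 ± 0.19 in w1118 female whole bodies (SD, n = 3 each). The only step in the order of means larger than both SDs lay between w1118 female heads and lol male whole bodies, 0.13 on the log2 scale, where the order passes between heads and whole bodies.

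PIG-M, the GPI mannosyltransferase whose RNA holds 4 reading frames, was at 14.37, 14.67 and 14.45 in lol female heads, against 14.31, 14.51 and 14.61 in w1118 female heads. In male heads it was at 14.41, 14.56 and 14.51 in lol, against 14.46, 14.31 and 14.50 in w1118. In female whole bodies it was at 14.59, 14.69 and 14.57 in lol, against 14.78, 14.71 and 14.66 in w1118. The strains overlapped in these 3 settings. Lol male whole bodies gave 14.56, 14.57 and 14.57, against 14.64, 14.35 and 14.80 in w1118 male whole bodies. The lol arrays were nearly identical here and sat inside the w1118 range. The lowest group mean was 14.42 ± 0.10 in w1118 male heads and the highest 14.72 ± 0.06 in w1118 female whole bodies (SD, n = 3 each). The only step larger than both SDs lay between lol and w1118 female whole bodies, 0.10 on the log2 scale.

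The comparison of heads with whole bodies gave the clearest pattern. All 16 differences (4 transcripts in each strain and sex) were below 0, from -0.52 to -0.07 on the log2 scale, and 23.1% of all transcripts were below 0 in all 4 settings. In limma's moderated test, two-sided and adjusted by the Benjamini-Hochberg method over all transcripts, 5 of the 16 passed an adjusted p of 0.05, in settings where 18.2% to 23.5% of all transcripts were called lower. ND-MNLL, Tim10 and Ppcdc all fell in w1118 female heads, to 73.4%, 69.8% and 75.6% of the whole-body level. Tim10 also fell in lol male heads, to 69.5%, and Ppcdc in lol female heads, to 75.1%. PIG-M passed in none of the 4.

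By setting, 1 of the 4 transcripts was called lower in heads of lol females, 3 in w1118 females, 1 in lol males and 0 in w1118 males. The share of all transcripts called lower was 18.2%, 18.7%, 23.5% and 23.5% in the same settings, so 0 or 1 of 4 lay near that background and the 3 of 4 in w1118 females above it. In w1118 females the log2 differences were -0.45 ± 0.16 for ND-MNLL (adjusted p = 0.0314), -0.52 ± 0.15 for Tim10 (adjusted p = 0.00906) and -0.40 ± 0.14 for Ppcdc (adjusted p = 0.0272; SE by limma). In lol males Tim10 gave -0.52 ± 0.15 (SE; adjusted p = 0.00475 by limma), and in lol females Ppcdc gave -0.41 ± 0.14 (SE; adjusted p = 0.025 by limma). In 10 of the 16 comparisons the 3 head arrays lay wholly below the 3 whole-body arrays: 4 for ND-MNLL, 3 for Tim10, 2 for Ppcdc and 1 for PIG-M. By setting these were 1 of 4 in lol females, 4 of 4 in w1118 females, 2 of 4 in lol males and 3 of 4 in w1118 males, where 23.7%, 25.9%, 25% and 24.7% of all transcripts separated in the same way. Both Tim10 calls passed under each alternative run, and the other 3 calls rested on single arrays. ND-MNLL and Ppcdc in w1118 females no longer passed without any 1 of w1118 female whole body 1 (-0.33 and -0.34, adjusted p = 0.157 and 0.111), whole body 2, head 1 or head 2 (adjusted p of 0.0614 to 0.101), nor after each array was centred on its median (-0.39 and -0.35, adjusted p = 0.0677 and 0.0616, all by limma). Ppcdc in lol females no longer passed without lol female whole body 2, head 1 or head 2 (-0.37 to -0.30, adjusted p of 0.0898 to 0.145 by limma). In the other direction, ND-MNLL passed in lol females without lol female head 3 (-0.45, adjusted p = 0.0468 by limma) and in lol males without lol male head 2 (-0.45, adjusted p = 0.0355 by limma). In w1118 males ND-MNLL and Ppcdc passed without w1118 male head 1 (-0.48 and -0.40, adjusted p = 0.025 and 0.0361) and PIG-M without w1118 male whole body 2 (-0.29, adjusted p = 0.0334, all by limma). With all arrays ND-MNLL lay close to the threshold in lol males and in w1118 males (adjusted p = 0.0547 and 0.0602 by limma). It passed in 9 and in 4 of 31 settings there. Some of these left out an array outside the comparison, such as w1118 male head 2 for lol males (-0.36, adjusted p = 0.0274 by limma). Ppcdc in w1118 males passed in 3 of 31 settings.

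Without the 4 head arrays that stood apart, Ppcdc in lol females no longer passed (-0.30, adjusted p = 0.136 by limma), while the w1118 female heads, which include none of those arrays, kept their 3 calls. Tim10 in lol males passed as well (-0.51, adjusted p = 0.0183 by limma). Outside w1118 females, the uncalled differences moved towards 0. In lol females they were -0.19 for ND-MNLL, -0.08 for Tim10 and -0.06 for PIG-M without those arrays. In w1118 males, with the single head array, they were -0.22 for ND-MNLL, -0.22 for Tim10, -0.25 for Ppcdc and -0.10 for PIG-M. In lol males they were -0.32 for ND-MNLL, -0.20 for Ppcdc and -0.03 for PIG-M.

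Averaged over both strains and sexes, a summary chosen after the values were seen, all 4 transcripts were lower in heads. ND-MNLL stood at 77.2% of its whole-body level (log2 -0.37, 95% confidence interval -0.54 to -0.21, adjusted p = 0.000322 by limma). Tim10 stood at 77.1% (log2 -0.38, interval -0.53 to -0.22, adjusted p = 0.000164 by limma) and Ppcdc at 79.0% (log2 -0.34, interval -0.49 to -0.19, adjusted p = 0.000235 by limma). The intervals of these 3 overlapped over most of their length. PIG-M stood at 90.0% (log2 -0.15, interval -0.27 to -0.03, adjusted p = 0.0219 by limma). Of all transcripts 33.5% were called lower in this average, and the median over all transcripts was 0.06. PIG-M lost its call when each array was centred on its median (-0.12, adjusted p = 0.0747) and without the 4 head arrays that stood apart (-0.11, adjusted p = 0.184, both by limma), where 1 of the 4 averaged settings rests on a single head array. The other 3 passed under each alternative run, at -0.29 for ND-MNLL, -0.33 for Tim10 and -0.29 for Ppcdc without those 4 arrays.

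**Figure D2:**
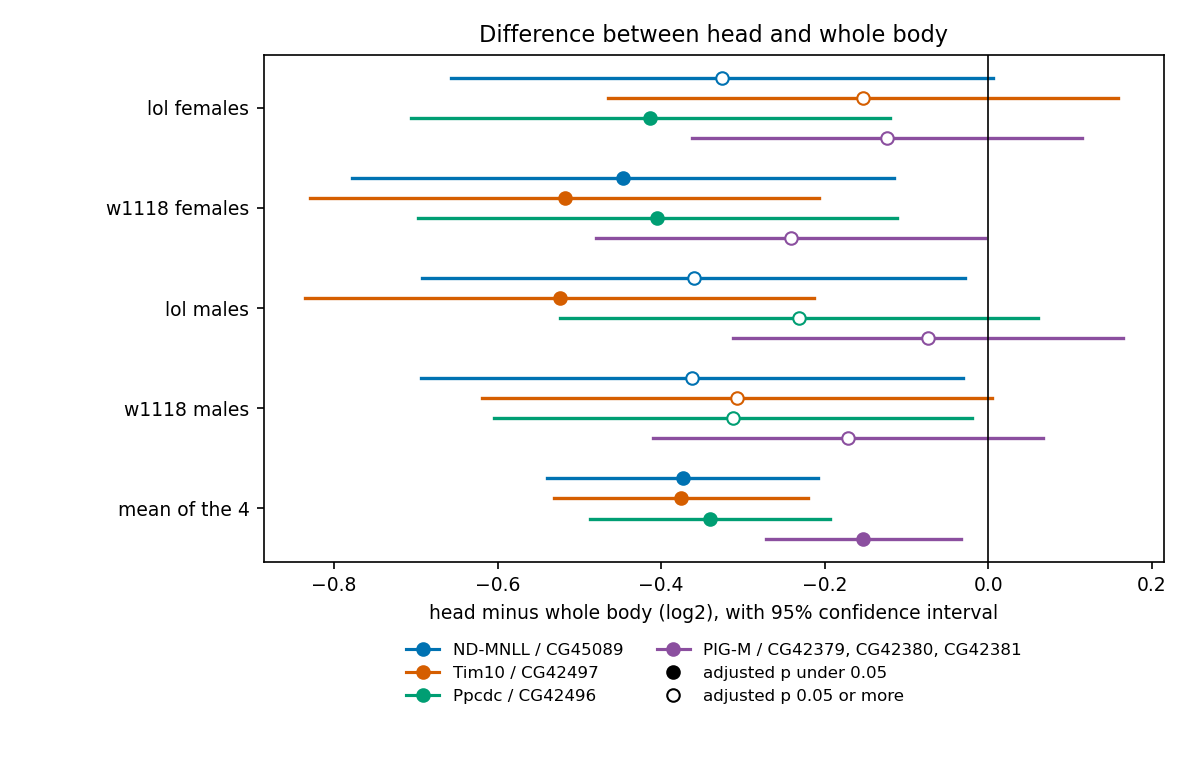
Head minus whole body (log2, horizontal axis) for each transcript in the 4 combinations of strain and sex and in their mean; points are limma estimates, lines 95% confidence intervals, and filled points have an adjusted p under 0.05. All points lie left of 0, and PIG-M lies nearest to it in each row.

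The comparison of lol with w1118 asked whether these RNAs differed between the strains, and no difference passed the test. The mutation and any other difference between the strains cannot be told apart here, and the effect of lol below means the strain difference. Of the 4 transcripts, 0 were called in each of female heads, male heads, female whole bodies and male whole bodies, where limma called 3.63%, 4.68%, 4.87% and 8.65% of all transcripts in either direction. The 16 log2 differences ran from -0.20 to 0.31, and their 95% confidence intervals reached from -0.49 to 0.62, which is 0.713-fold to 1.54-fold. With 3 arrays a group the intervals leave room for changes of that size. Averaged over the 4 settings the log2 differences were 0.06 for ND-MNLL, 0.13 for Tim10, -0.17 for Ppcdc and -0.01 for PIG-M. None of the 4 was called, where limma called 19.6% of all transcripts, and 0 of 4 lay near that share. Without the 4 head arrays that stood apart none was called either, in any setting or in the mean. In female heads the differences were then 0.27 for ND-MNLL, 0.38 for Tim10, -0.08 for Ppcdc and 0.08 for PIG-M. In male heads, with 2 lol arrays and 1 w1118 array, they were -0.05 for ND-MNLL, -0.05 for Tim10, -0.13 for Ppcdc and 0.04 for PIG-M.

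Tim10 in female heads was the 1 comparison of the 16 with an unadjusted p under 0.05. It was 0.31 ± 0.15 higher in lol on the log2 scale (SE), with an unadjusted p of 0.0495 and an adjusted p of 0.402 by limma. Its differences in the other settings were 0.02 in male heads, -0.05 in female whole bodies and 0.24 in male whole bodies. Single arrays moved each of these. The female-head value was 0.18 without lol female head 3, and the male-whole-body value 0.12 without lol male whole body 1 and 0.38 without lol male whole body 2. The female-whole-body value lay between -0.14 and 0.02 and the male-head value between -0.07 and 0.08 over the alternatives, so the sign in these 2 settings was not settled.

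Ppcdc was below 0 in all 4 settings, as were 16.7% of all transcripts. Its log2 differences were -0.20 in female heads, -0.10 in male heads, -0.19 in female whole bodies and -0.18 in male whole bodies, with adjusted p-values of 0.497 to 0.789 by limma. Over the alternatives these kept their sign, but the female-head value lay between -0.36 (without lol female head 3) and -0.08 (without lol female head 1). The male-head value lay between -0.22 (without w1118 male head 2) and -0.02 (without w1118 male head 1), and the female-whole-body value between -0.29 and -0.12. In male whole bodies the 3 lol arrays lay below the 3 w1118 arrays, the only such separation among the 16, in a setting where 15.8% of transcripts separated in that way and 5.76% were called lower. The mean over the settings was -0.17 ± 0.07 (SE), with an interval of -0.31 to -0.02 and an adjusted p of 0.106 by limma. It passed when lol female head 3 was left out (-0.21, adjusted p = 0.0237 by limma), and under no other alternative run. ND-MNLL was above 0 in all 4 settings by 0.02 to 0.14, as were 16.6% of transcripts, but this sign did not hold under the alternatives in 2 of them. Its male-head value was -0.05 without the 4 head arrays that stood apart and -0.14 without w1118 male head 2 alone, and its female-whole-body value -0.01 after a second quantile normalization and -0.13 without w1118 female whole body 3.

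**Figure D3:**
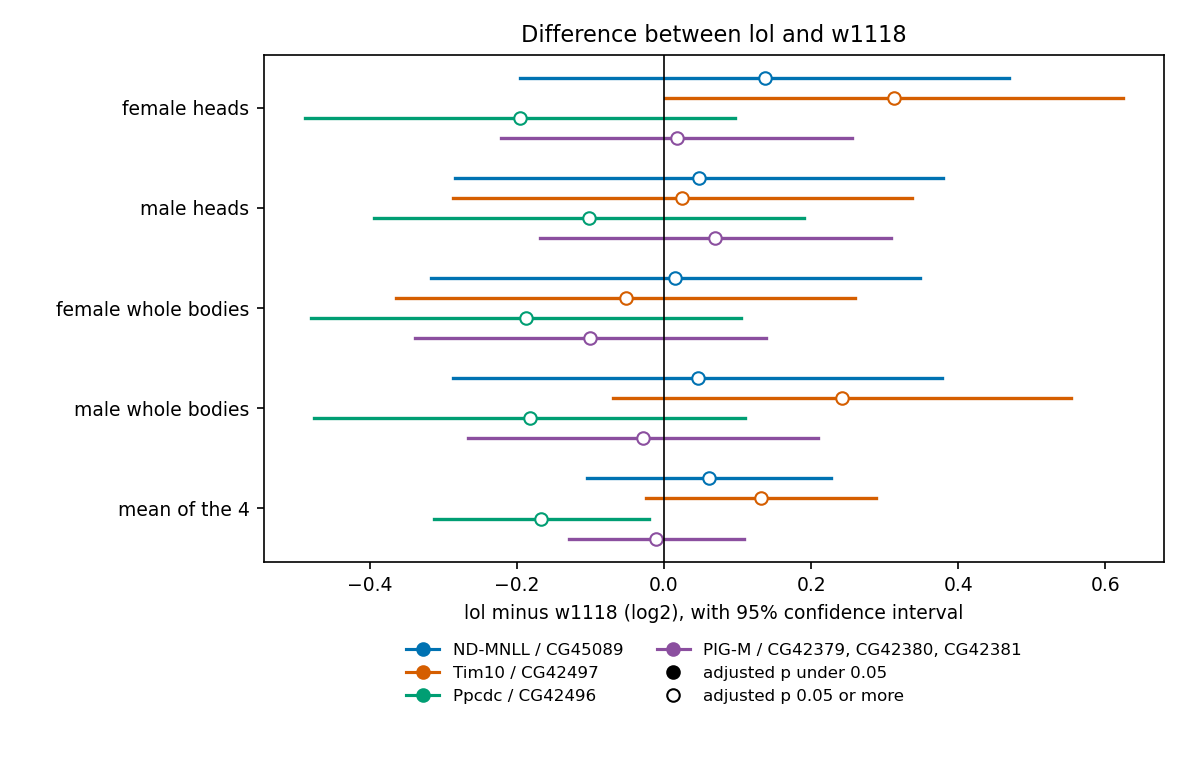
Lol minus w1118 (log2, horizontal axis) for each transcript in the 4 combinations of sex and tissue and in their mean; points are limma estimates, lines 95% confidence intervals, and open points have an adjusted p of 0.05 or more. Every point is open, and Ppcdc is the transcript left of 0 in each row.

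No difference between females and males passed the test, while many other transcripts differed between the sexes in whole bodies. There limma called 59.5% of all transcripts between the sexes in lol and 45.3% in w1118, and 0 of the 4 polycistronic transcripts in either strain. In heads it called 0.0865% of all transcripts in each strain, and again 0 of the 4. The 16 female minus male log2 differences ran from -0.22 to 0.16 with unadjusted p-values of 0.164 or more, and the sexes overlapped in all 16. The outermost value was Tim10 in lol whole bodies, -0.22 ± 0.15 (SE; adjusted p = 0.222 by limma). Averaged over strains and tissues, also a summary chosen after the values were seen, the differences were 0.03 for ND-MNLL, -0.03 for Tim10, 0.02 for Ppcdc and 0.06 for PIG-M. Their intervals together spanned -0.18 to 0.19, so the data leave room for a sex difference of that size in either direction, and the same average called 59.1% of all transcripts. Without the 4 head arrays that stood apart 0 of the 4 were called in heads or in the average, with Tim10 at 0.21 in lol heads, against 0.16 with all arrays, and at -0.22 in w1118 heads, against -0.13.

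No strain effect was shown to depend on sex or tissue, and no sex difference on tissue. Of the 20 interaction terms (5 for each transcript) 0 were called by limma. For the effect of lol between sexes it called 0% of all transcripts in heads and 0.252% in whole bodies, and between tissues 0.375% in females and 0.432% in males. For the sex difference between tissues it called 45.8%. The outermost terms were both for Tim10. The effect of lol on Tim10 was 0.36 ± 0.21 higher in heads than in whole bodies of females (SE; adjusted p = 1.00 by limma, unadjusted p = 0.0993). This is also the test of whether the head difference of Tim10, called in w1118 females and at -0.15 in lol females, differed between strains. In whole bodies the effect of lol on Tim10 was 0.29 lower in females than in males (-0.29 ± 0.21, SE; adjusted p = 0.612 by limma). Without the 4 head arrays that stood apart 0 of the 20 were called, and the effect of lol on Tim10 was 0.44 higher in heads than in whole bodies of females and 0.43 higher in female than in male heads.

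The reference table lists several genes for 23 other measured transcripts, which allows these 4 to be set beside their kind. In the average of head minus whole body, limma called 9 of the 23 higher in heads and 5 lower. Their median was 0.07 on the log2 scale and their range -0.66 to 0.87. Of all 13873 transcripts, limma called 5412 higher and 4644 lower, with a median of 0.06. Both directions therefore occurred among transcripts with several genes, as among all transcripts. Between the sexes 12 of the 23 were called higher and 1 lower in lol female whole bodies relative to males. In w1118 9 were called higher and 1 lower, and in both strains 0 of the 4 were called. Of all transcripts, 59.5% were called between the sexes in lol whole bodies and 45.3% in w1118 whole bodies. GPI-anchor genes were looked for only as the 21 symbols starting with PIG-, so genes of that pathway with other names were not covered. Besides PIG-M, the only match was PIG-P, a subunit of the complex that starts anchor synthesis, on a transcript shared with Tcs6. Its mean head minus whole body difference was 0.01 (adjusted p = 0.958 by limma) and its mean lol minus w1118 difference -0.01. It was called in 1 comparison, females over males in w1118 whole bodies, by 0.54 on the log2 scale (adjusted p = 0.0258 by limma). No other gene of complex I (40 symbols looked for), of inner-membrane import (10) or of coenzyme A synthesis (5) had a measured transcript identifier in the table.

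**Figure D4:**
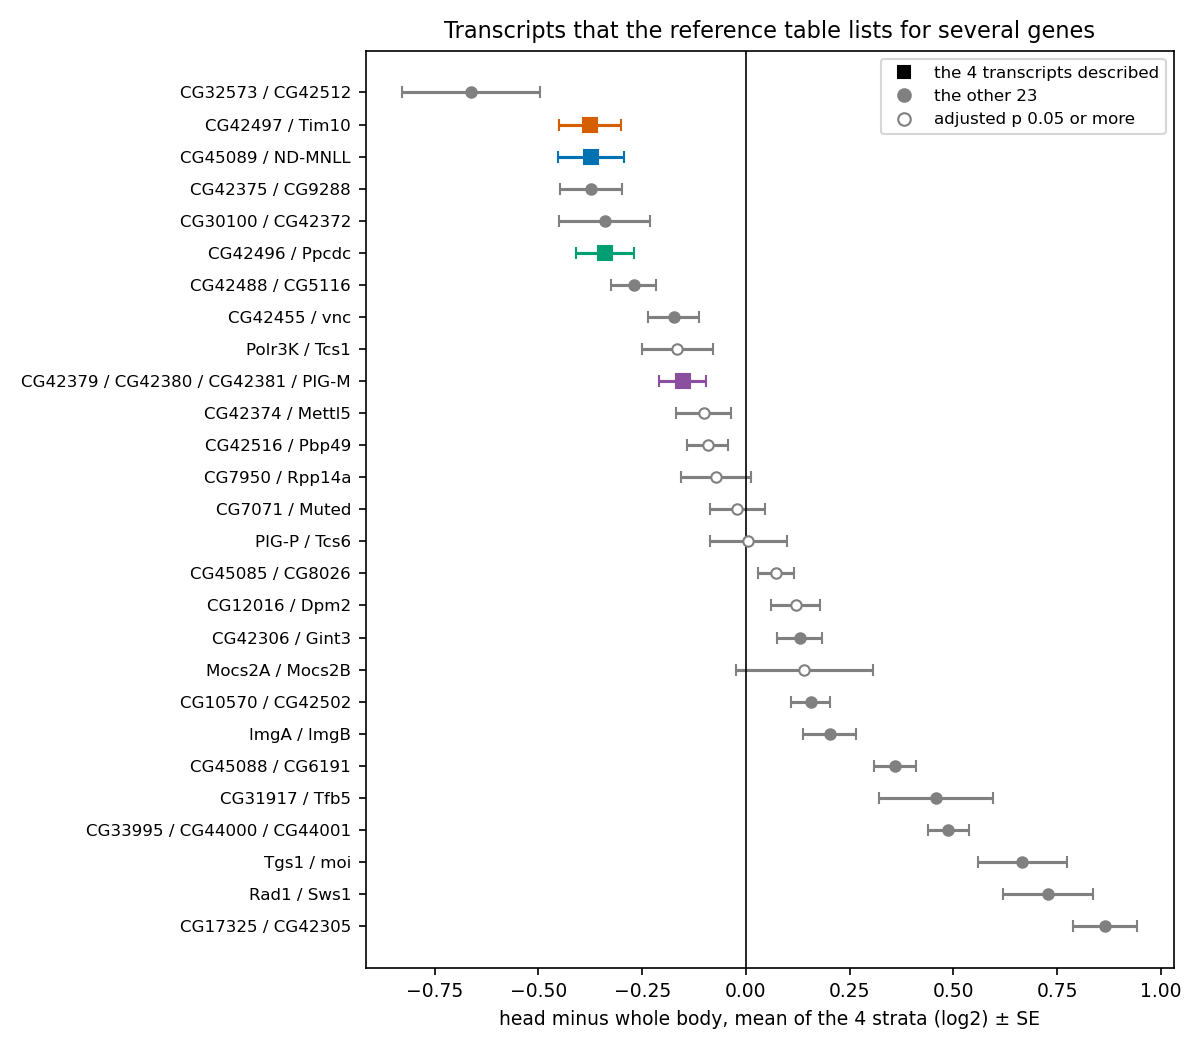
Head minus whole body (log2 ± SE, horizontal axis), averaged over strains and sexes, for the 27 measured transcripts listed for several genes; squares are the 4 transcripts described, circles the other 23, and open circles have an adjusted p of 0.05 or more. The class spreads over both sides of 0, from -0.66 to 0.87.

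The patterns of the 4 over the 8 group means resembled each other to different degrees. As a description over 8 means that share their arrays, Pearson's r was 0.932 between ND-MNLL and Tim10 and 0.602 between Tim10 and Ppcdc, whose genes adjoin. The other pairs were at 0.878 for ND-MNLL with PIG-M, 0.852 for Ppcdc with PIG-M, 0.795 for ND-MNLL with Ppcdc and 0.734 for Tim10 with PIG-M. The order of the pairs depended on the measure: Spearman's rho was 0.929 for ND-MNLL with PIG-M and 0.905 for ND-MNLL with Tim10. Of all transcripts, 4.08% were at least as like ND-MNLL as Tim10 was, and 0.368% at least as like Tim10 as ND-MNLL was. For Tim10 and Ppcdc 16% were at least as like Tim10 and 17.8% at least as like Ppcdc. The transcripts most like ND-MNLL were FBtr0079755 (r = 0.994) and FBtr0072501 (0.992), and those most like Tim10 were FBtr0071449 (0.993) and FBtr0087440 (0.979). For Ppcdc they were FBtr0084409 and FBtr0084288 (both 0.987), and for PIG-M FBtr0074622 (0.982) and FBtr0081719 (0.978), identifiers to which the table gives no single gene. Among the 16 measured transcripts with a single gene listed, sle, a gene of nerve cell development, came first for all 4, with r between 0.760 and 0.889. With Spearman's rho, or over the 24 arrays, 0 of these top pairs recurred except 1 for Tim10, so the ranking was not stable to the measure.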

How the data were processed

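Total RNA from 24 samples was labelled with Cy3 and hybridised to 1-colour NimbleGen arrays, per the labels' protocols. The authors deposited log2 expression values after RMA, per the submitters' processing notes; RMA corrects background, equalises distributions and summarises probes. Which arrays were normalized together is not given in the sources used here. The table held 15595 transcripts, of which 1722 had no value, leaving 13873. Array data have no read depth, so precision depends on having 3 arrays per group.

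A model with 8 group means was fitted to all transcripts with limma 3.58.1 in R 4.3.3 on the deposited log2 values, with no filter on low values, and p-values were adjusted over the 13873 transcripts in each comparison. The model was checked on simulated data with independent noise and known shifts in lol female heads. That check does not cover outlying arrays or effects shared by replicates. Gene names came from transcript identifiers in a RefSeq table of another genome release, of which 43 were measured, so no coordinates are given. The 4 transcripts, the gene lists and the 4 head arrays left out in an alternative were chosen with earlier results of these data known. The transcripts named for likeness are the 2 with the highest Pearson r for each of the 4, and the first with a single gene listed.

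Alternatives were a second quantile normalization, median centring, dropping the lowest 25% of transcripts, fits on the compared groups or the compared tissue, a robust prior that follows intensity, a replicate block, leaving out 4 head arrays, and leaving out each array. Replicate numbers are shared between groups. Deviations of same-numbered arrays correlated above 0.1 in 21 of 36 pairs (range -0.594 to 0.67), and in every pair of 2 of 12 comparisons: lol against w1118 in male whole bodies, and females against males in w1118 heads.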

Additional observations from a re-analysis of the deposited data

How the results depend on the processing

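The count of the 4 transcripts called lower in heads depended on the setting. In lol females it was 0 without the 4 head arrays that stood apart and 0 with the compared groups only, and 0 to 2 when single arrays were left out. In w1118 females it was 1 after median centring and 1 with the compared groups only, and 1 to 3 when single arrays were left out. In lol males it was 2 with the robust intensity trend and 2 without the lowest 25% of transcripts, and 1 to 2 when single arrays were left out. In w1118 males it was 2 with the robust intensity trend and 0 to 2 when single arrays were left out. Tim10 in w1118 females and in lol males passed in all 31 settings, from -0.60 to -0.45 and from -0.66 to -0.40 on the log2 scale. The mean lol minus w1118 count was 0 to 1 when single arrays were left out.

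Signs turned where values were near 0, and none of these passed. For lol minus w1118, PIG-M in female heads became -0.0032 after median centring (-0.0695 to 0.0824 leaving out single arrays), ND-MNLL and Tim10 in male heads became -0.0545 and -0.0502 without the 4 head arrays, where 2 lol arrays meet 1 w1118 array and other groups supply its spread (-0.141 to 0.164 and -0.0686 to 0.079 leaving out single arrays), and ND-MNLL in female whole bodies became -0.0133 after a second quantile normalization (-0.126 to 0.135). Leaving out single arrays also gave -0.137 to 0.0172 for Tim10 in female whole bodies, and -0.152 to 0.0726 for PIG-M in male whole bodies and -0.0412 to 0.0149 in the mean. For the female minus male mean the ranges were -0.0197 to 0.0628 for ND-MNLL, -0.0633 to 0.00259 for Tim10 and -0.0178 to 0.051 for Ppcdc.

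With the replicate block no call changed: Tim10 kept -0.38 (adjusted p = 0.000216) and PIG-M -0.15 (adjusted p = 0.0254) in the mean head difference, by limma. In 1 of the 12 comparisons every array correlated best with its own number. The causes of these shifts were not tested.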
